A study of Mus musculus with 18 samples.

Results

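The 9 genes described here act in haemostasis, the process by which blood clots form at an injured vessel and are later dissolved: Vwf, F8, Adamts13, F3, Tfpi, Procr, Plat, Plau and Plaur. They were chosen by name and matched by gene symbol, and each of the 9 symbols matched 1 of the 35727 gene IDs counted. RNA of mouse cells was sequenced in 18 libraries that fall into 6 groups of 3, and the stated question was how far cells from each organ take on the endothelial identity of that organ. The groups were lung iECs, heart iECs, native lung endothelial cells (lung ECs), native heart endothelial cells (heart ECs), lung control fibroblasts and heart control fibroblasts. All 6 groups were cultured in EGM2, an endothelial growth medium, and taken at day 7. The titles of the iEC libraries carry the word SEG, which the labels do not explain, and strain, age, transgenes and the way the iECs were made are not given in the sources used here. The labels do not say whether the 3 replicates of a group came from separate animals or cultures, and p-values therefore rest on a spread between libraries that may be technical.

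Library totals ranged from 17747632 to 23775372 estimated counts. Levels are in CPM, counts scaled to a common library size after edgeR's TMM factors. Changes are log2 changes with their standard error (SE) from 1 edgeR fit over the 18 libraries. A change was called where its adjusted p over the 14864 genes tested was under 0.05. The labels were checked against marker genes. Sox17 averaged 475 CPM in lung iECs and 466 CPM in heart iECs, against at most 14.2 CPM in the ECs, and Erg averaged 1034 CPM in lung iECs and 1024 CPM in heart iECs, against at most 85.6 CPM in the ECs. The endothelial junction gene Cdh5 averaged 465 CPM in lung iECs, 555 CPM in heart iECs, 999 CPM in lung ECs and 465 CPM in heart ECs, against 3.17 CPM in lung fibroblasts and 75.5 CPM in heart fibroblasts. Pecam1, which also defines endothelium, was at 7.13 CPM in lung iECs and 96.3 CPM in heart iECs, against 562 CPM in lung ECs and 310 CPM in heart ECs. Markers of other cell types were present too. The summed level of 10 macrophage markers was 2518 to 3846 CPM in lung iECs, 298 to 352 CPM in heart iECs, 7941 to 9864 CPM in lung ECs, 238 to 352 CPM in heart ECs, 1072 to 1367 CPM in lung fibroblasts and 211 to 240 CPM in heart fibroblasts. Markers of fibroblasts averaged 13360 CPM in sum in lung iECs, 18470 CPM in heart iECs, 6270 CPM in lung ECs and 20820 CPM in heart ECs, against 40090 CPM in lung fibroblasts and 30910 CPM in heart fibroblasts. Markers of smooth muscle and pericytes averaged 3559 CPM in lung iECs, 1508 CPM in heart iECs, 1694 CPM in lung ECs and 525 CPM in heart ECs, against 1040 CPM in lung fibroblasts and 327 CPM in heart fibroblasts. Those of megakaryocytes and platelets averaged 43.1 CPM in lung iECs and 124 CPM in lung ECs, against 8.36 CPM in lung fibroblasts, and 4.71 to 15.1 CPM in the heart groups; Treml1 had at most 3 counts in every group but lung fibroblasts. Summed mesothelial markers averaged 51.5 CPM in lung iECs, 368 CPM in lung ECs and 310 CPM in lung fibroblasts. In the heart they averaged 115 CPM in iECs, 504 CPM in ECs and 67.4 CPM in fibroblasts. Summed epithelial markers averaged 179 CPM in lung ECs and at most 6.21 CPM in the other groups. Those of cardiomyocytes averaged 9.28 CPM in heart iECs, 69.3 CPM in heart ECs and 89.5 CPM in heart fibroblasts. In the lung groups they averaged at most 2.71 CPM. The part of these cell types in the results was not tested. The sum of the 12 endothelial markers averaged 1240 CPM in lung iECs, 1654 CPM in heart iECs, 3223 CPM in lung ECs and 2601 CPM in heart ECs. The same markers summed to 113 to 125 CPM in lung fibroblasts and to 717 to 740 CPM in heart fibroblasts.

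Coagulation starts when tissue factor, the product of F3, meets factor VII in blood, and TFPI, the product of Tfpi, inhibits this step. Endothelium keeps blood fluid through thrombomodulin and the endothelial protein C receptor, the product of Procr, which together activate protein C. When a vessel is damaged, endothelial von Willebrand factor captures platelets and carries factor VIII, and the protease ADAMTS13 trims it. Fibrin is dissolved by plasmin, which tissue plasminogen activator (Plat) and urokinase (Plau) generate from plasminogen, urokinase mostly while bound to its receptor (Plaur).

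Promoter sequence was at hand for 6 of the 9 members, with 7 starts because Tfpi has a pair of them. The 250 bases before each start were searched on both strands for 4 motifs: AGGAAG, a form of the ETS motif, ACAAT, a core SOX motif, TGANTCA, the AP-1 motif, and TATAAA, the TATA motif. TGANTCA was found in 6.75% of all 32851 promoters and in those of Procr, F3 and Plaur, which are shown for that reason. Each of these genes differed between lung and heart in the 3 cell types, but so did F8, whose promoter has no TGANTCA in this window. Its letters began 154 bases before the RefSeq start in Procr, 146 and 135 bases before it in F3, and 69 bases before it in Plaur. The 3 stretches are from RefSeq on GRCm38.p6, on the plus strand, at chr2:155750967-155751116 for Procr, chr3:121723287-121723536 for F3 and chr7:24462233-24462482 for Plaur, and capitals mark the TGANTCA matches. The Procr stretch ends at the annotated gene start, short of the RefSeq start.
Procr: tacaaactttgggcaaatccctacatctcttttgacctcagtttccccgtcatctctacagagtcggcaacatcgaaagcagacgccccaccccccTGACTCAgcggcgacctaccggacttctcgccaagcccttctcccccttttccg
F3: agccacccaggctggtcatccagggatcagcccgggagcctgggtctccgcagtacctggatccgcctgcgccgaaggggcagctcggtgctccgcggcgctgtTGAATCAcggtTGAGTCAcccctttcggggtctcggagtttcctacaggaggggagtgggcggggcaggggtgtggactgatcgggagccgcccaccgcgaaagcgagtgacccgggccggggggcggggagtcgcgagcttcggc
Plaur: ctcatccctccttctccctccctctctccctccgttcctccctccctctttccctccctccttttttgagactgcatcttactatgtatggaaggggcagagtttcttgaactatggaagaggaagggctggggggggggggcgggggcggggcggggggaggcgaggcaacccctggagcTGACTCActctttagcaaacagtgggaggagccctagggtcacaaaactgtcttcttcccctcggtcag
AGGAAG was found in 29.5% of all promoters, and among the members in Plaur, 130 bases before the start, and at the downstream start of Tfpi. ACAAT was found in 27.7% of promoters, and among the members at both starts of Tfpi and in F8. TATAAA was found in 12.4% of promoters and, as TTTATA on the other strand, 127 bases before the upstream start of Tfpi. None of the 4 motifs was in the Adamts13 window. No motif in this search overlapped another in the 3 sequences shown. A match is a description of the letters, not of a bound site.

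Vwf encodes von Willebrand factor and lies on chromosome 6 from 125546774 to 125686679 of GRCm38, plus strand, with 52 exons in its longest coding transcript. Vwf reached 4.41, 3.65 and 3.14 CPM in the 3 lung iEC libraries and 17.97, 24.2 and 24.5 CPM in the 3 heart iEC libraries. It reached 206, 184.5 and 193 CPM in lung ECs and 281, 295 and 250.5 CPM in heart ECs. Vwf was at 1.77, 2.25 and 1.62 CPM in lung fibroblasts and at 19.8, 22.9 and 17.1 CPM in heart fibroblasts. All 6 EC libraries stood far above the other 12, lung iECs stood above lung fibroblasts with no overlap, and heart iECs overlapped heart fibroblasts.

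Against native cells of the same organ, Vwf was 52.1-fold lower in lung iECs than in lung ECs (log2 change -5.70 ± 0.16, edgeR adjusted p = 9.23e-15) and 12.4-fold lower in heart iECs than in heart ECs (-3.63 ± 0.14, adjusted p = 4.5e-13). Against fibroblasts, lung iECs had a log2 change in Vwf of 0.98 ± 0.19 (adjusted p = 0.000282), which rests on 243 counts in the 3 lung iEC libraries against 114 in the 3 lung fibroblast libraries. The change in heart iECs, 0.16 ± 0.13, did not pass the test (adjusted p = 0.34); with library totals alone in place of TMM, it was 0.34 with an adjusted p of 0.037. Vwf was 103-fold higher in lung ECs than in lung fibroblasts and 13.8-fold higher in heart ECs than in heart fibroblasts. Endothelial markers, given above, were also lower in lung fibroblasts than in heart fibroblasts, and their part in the Vwf level of fibroblasts was not tested. In bulk RNA, fewer cells that express a gene and less of its RNA per cell cannot be told apart. In counts, Vwf per count of Cdh5 was 0.00810 ± 0.00182 in lung iECs and 0.0401 ± 0.00676 in heart iECs, 0.195 ± 0.0124 in lung ECs and 0.596 ± 0.0866 in heart ECs, against 0.618 ± 0.161 in lung fibroblasts and 0.268 ± 0.0602 in heart fibroblasts (mean ± SD, n = 3 each). The ratio was lowest in the iECs, where Cdh5 was high and Vwf low. In fibroblasts, where both were low, it reached the range of the ECs. Per summed CPM of the endothelial markers, Vwf averaged 0.00304 in lung iECs, 0.0134 in heart iECs, 0.0604 in lung ECs and 0.106 in heart ECs. With that denominator fibroblasts, at 0.0157 in lung and 0.0273 in heart, lay below the range of the ECs.

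**Figure D1:**
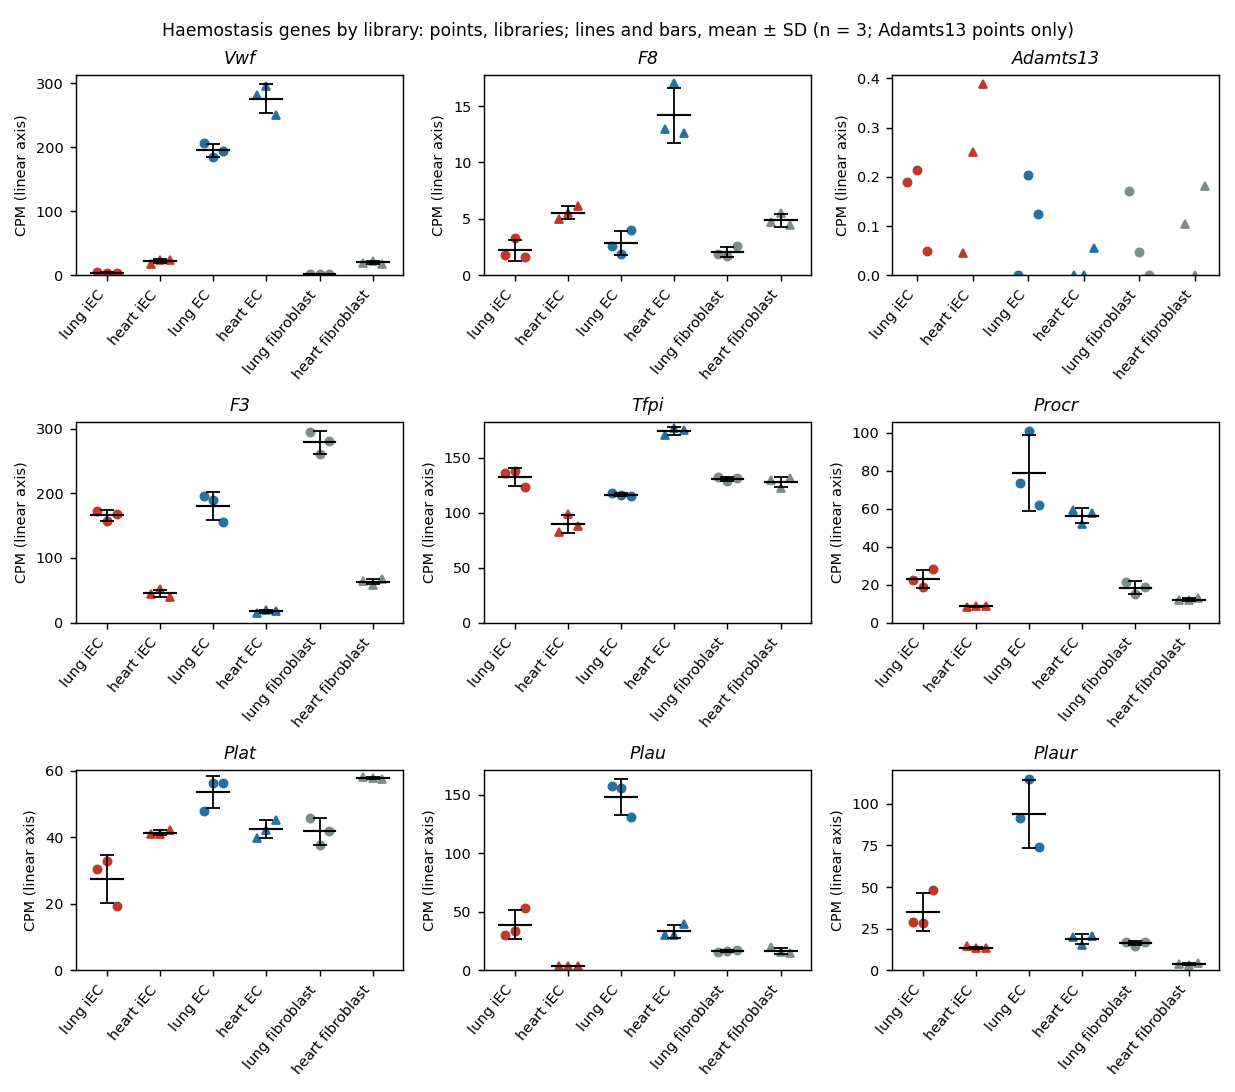
Levels of the 9 haemostasis genes in CPM in each library (points) of the 6 groups, with the mean ± SD of 3 libraries (lines and bars; points only for Adamts13). Vwf is high in the EC libraries alone, F3 is higher in each lung group than in the heart group of the same cell type, and Plau is highest in lung ECs.

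F8 encodes coagulation factor VIII, which circulates bound to von Willebrand factor and is made by endothelial cells of several organs. It lies on chromosome X from 75172715 to 75382615, minus strand. The annotated spans of Gm6039 and Fundc2, on the plus strand, and of Gm8522, on the minus strand, overlap it. Whether these genes share exon sequence with F8, and how far their reads entered its counts, was not tested. F8 was at 1.75, 3.31 and 1.64 CPM in lung iECs and at 4.97, 5.55 and 6.13 CPM in heart iECs. Lung ECs held 2.63, 1.92 and 4.04 CPM and heart ECs 12.9, 17.0 and 12.7 CPM. Lung fibroblasts held 1.89, 1.73 and 2.57 CPM and heart fibroblasts 4.70, 5.48 and 4.42 CPM. Heart ECs stood above every other library, the ranges of heart iECs and heart fibroblasts overlapped, and so did those of the 3 lung groups. F8 was 2.56-fold lower in heart iECs than in heart ECs (log2 change -1.35 ± 0.25, edgeR adjusted p = 0.000203) and 2.92-fold higher in heart ECs than in heart fibroblasts (1.54 ± 0.26, adjusted p = 7.94e-05). In the lung, none of the 3 comparisons of F8 passed the test: the log2 change was 0.12 ± 0.29 in iECs and 0.47 ± 0.29 in ECs against fibroblasts, with adjusted p of 0.766 and 0.174, and -0.35 ± 0.28 in iECs against ECs (adjusted p = 0.337). Without replicate 2 of the lung iECs, whose 3.31 CPM was above the other two, the last change was -0.75 with an edgeR adjusted p of 0.0462, and the change against lung fibroblasts turned to -0.29.

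In counts, Vwf per count of F8 was 1.84 ± 0.707 in lung iECs, 3.99 ± 0.376 in heart iECs, 74.2 ± 24.5 in lung ECs and 19.6 ± 2.19 in heart ECs, against 0.959 ± 0.338 in lung fibroblasts and 4.09 ± 0.185 in heart fibroblasts (mean ± SD, n = 3 each). The 6 EC libraries stood above the other 12.

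Adamts13, on chromosome 2 from 26973416 to 27009628, was near the limit of detection. Its counts were 4, 5 and 1 in lung iECs, 1, 6 and 9 in heart iECs, 0, 5 and 3 in lung ECs, 0, 0 and 1 in heart ECs, 3, 1 and 0 in lung fibroblasts, and 2, 0 and 3 in heart fibroblasts. A floor of 3 counts over a group equals 0.0436 to 0.0507 CPM, by counting error alone. The gene did not pass the filter on low counts, so 8 of the 9 members were tested, and no fold change is given for it.

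F3 encodes tissue factor and lies on chromosome 3 from 121723537 to 121735048, plus strand; in the body it is known from cells around vessels, such as fibroblasts, more than from resting endothelium. F3 was at 173, 156.5 and 168 CPM in lung iECs and at 44.4, 51.5 and 40.0 CPM in heart iECs. Lung ECs had 196, 190.1 and 156 CPM, and heart ECs 15.3, 19.1 and 18.4 CPM. Lung fibroblasts had 295, 259.9 and 281 CPM, and heart fibroblasts 64.7, 58.9 and 67.3 CPM. Each lung library stood above each heart library of any cell type. Within the lung, fibroblasts were above both other groups and the iEC and EC ranges overlapped; within the heart, fibroblasts were highest, iECs next and ECs lowest, with no overlap.

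F3 fell in iECs and in ECs against fibroblasts of the same organ. In lung iECs the log2 change was -0.75 ± 0.10 (edgeR adjusted p = 8.23e-06) and in lung ECs -0.62 ± 0.10 (adjusted p = 4.71e-05), and the difference between lung iECs and lung ECs, -0.12 ± 0.10, did not pass (adjusted p = 0.354). In heart iECs the change was -0.49 ± 0.11 (adjusted p = 0.000816), against -1.86 ± 0.11 in heart ECs (adjusted p = 3.75e-10), and heart iECs had 2.58-fold more F3 than heart ECs (1.37 ± 0.11, adjusted p = 1.12e-08). The iEC and EC changes are set against the same fibroblast libraries.

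Tfpi, which encodes the inhibitor of the tissue factor pathway, lies on chromosome 2 from 84432855 to 84476775, minus strand. Its group means spanned 89.6 to 174 CPM. Its level was 136, 138 and 123 CPM in lung iECs and 82.3, 98.6 and 87.9 CPM in heart iECs. It was 118, 116 and 115 CPM in lung ECs and 170.3, 177 and 175 CPM in heart ECs. In fibroblasts it was 129 to 132 CPM in lung and 122.5 to 132 CPM in heart. Heart ECs were above and heart iECs below all other libraries. Tfpi fell in heart iECs against heart fibroblasts (log2 change -0.51 ± 0.069, edgeR adjusted p = 4.94e-06) and against heart ECs (-0.96 ± 0.069, adjusted p = 2.16e-09), and rose in heart ECs against heart fibroblasts (0.44 ± 0.068, adjusted p = 3.55e-05). In the lung its changes were 0.02 ± 0.068 in iECs against fibroblasts (adjusted p = 0.848), -0.17 ± 0.068 in ECs against fibroblasts (adjusted p = 0.0412) and 0.19 ± 0.068 in iECs against ECs (adjusted p = 0.032). The lung EC to fibroblast call was lost without any 1 of the 6 libraries compared, replicate 3 of the heart iECs or replicate 1 of the heart fibroblasts (edgeR adjusted p of at most 0.0865), with RLE size factors (0.0863), with DESeq2 (0.0664), with no filter (0.209), with the 2 groups fitted alone (0.141) and with library totals alone (0.555). The lung iEC to EC call was lost without replicate 1 or 2 of the lung iECs or any lung EC library (at most 0.122), with no filter (0.0786) and with the 2 groups fitted alone (0.056). The sign of the lung iEC to fibroblast change turned without replicate 1 or 2 of the lung iECs, and with library totals alone the change was 0.18 (0.0397).

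The balance of F3 to Tfpi within a library differed by organ. The ratio of their counts, which is not corrected for length and is read only between groups, was 1.27, 1.13 and 1.37 in lung iECs and 0.540, 0.523 and 0.455 in heart iECs. It was 1.67, 1.63 and 1.36 in lung ECs and 0.0900, 0.108 and 0.105 in heart ECs. In fibroblasts it ranged between 2.02 and 2.23 in lung and between 0.481 and 0.511 in heart. Heart ECs had the lowest ratio of inducer to inhibitor, and the heart iEC range overlapped that of heart fibroblasts.

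Procr encodes the endothelial protein C receptor, and lies on chromosome 2 from 155751117 to 155755471, plus strand. Procr was at 22.4, 18.9 and 28.2 CPM in lung iECs and at 8.43, 8.93 and 8.89 CPM in heart iECs. In lung ECs it was 73.4, 101 and 61.8 CPM and in heart ECs 59.2, 51.8 and 57.6 CPM. In lung fibroblasts it was 21.5, 14.8 and 18.8 CPM and in heart fibroblasts 11.8, 11.9 and 12.8 CPM. The 2 EC groups stood above all other libraries, lung iECs overlapped lung fibroblasts, and heart iECs lay below every other library.

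Procr was 3.40-fold lower in lung iECs than in lung ECs (log2 change -1.76 ± 0.17, edgeR adjusted p = 1.66e-07) and 6.42-fold lower in heart iECs than in heart ECs (-2.68 ± 0.18, adjusted p = 1.62e-09). Against fibroblasts it rose in lung ECs (2.10 ± 0.17, adjusted p = 1.13e-08) and heart ECs (2.21 ± 0.18, adjusted p = 2.39e-08). The change in lung iECs was 0.34 ± 0.17 (adjusted p = 0.111), and it passed without replicate 2 of the lung iECs (0.46, adjusted p = 0.0394) and with library totals alone (0.50, adjusted p = 0.0123). The change in heart iECs, -0.47 ± 0.18, had an adjusted p of 0.0387 and was no longer called when any 1 of the 3 heart iEC or 3 heart fibroblast libraries was left out (adjusted p of at most 0.0998) or with library totals alone (0.153).

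Thbd, which encodes thrombomodulin, the partner of this receptor, ran the other way between iECs and ECs. It averaged 291 CPM in lung iECs and 271 CPM in heart iECs, against 136 CPM in lung ECs, 86.9 CPM in heart ECs, 188 CPM in lung fibroblasts and 64.8 CPM in heart fibroblasts. Thbd rose in lung iECs (log2 change 1.10 ± 0.12 against lung ECs, edgeR adjusted p = 6.21e-07) and in heart iECs (1.64 ± 0.12 against heart ECs, adjusted p = 3.35e-09). Counts of Procr per count of Thbd were 0.0814 ± 0.0238 in lung iECs and 0.0322 ± 0.00062 in heart iECs, against 0.579 ± 0.121 in lung ECs and 0.654 ± 0.0790 in heart ECs (mean ± SD, n = 3 each). The receptor and thrombomodulin stood in different proportion, with no overlap, in the RNA of iECs and of native ECs. In fibroblasts the ratio was 0.09965 ± 0.0278 in lung, where its range overlapped that of lung iECs. It was 0.188 ± 0.0118 in heart fibroblasts, above heart iECs with no overlap.

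Plat encodes tissue plasminogen activator, and lies on chromosome 8 from 22757727 to 22782844, plus strand. Its level was 30.4, 32.8 and 19.2 CPM in lung iECs and 40.9, 41.0 and 42.2 CPM in heart iECs. It was 47.9, 56.3 and 56.4 CPM in lung ECs and 39.7, 42.2 and 45.3 CPM in heart ECs. In fibroblasts it was 37.6 to 45.7 CPM in lung and 57.5 to 58.1 CPM in heart. The lung iECs were lowest, with replicate 3 below the other two, and the heart iEC range lay inside that of heart ECs. Plat fell in lung iECs against lung ECs (log2 change -0.96 ± 0.14, edgeR adjusted p = 1.47e-05) and against lung fibroblasts (-0.60 ± 0.14, adjusted p = 0.00123), the last being -0.40, and still called, without that replicate 3. It fell in heart iECs (-0.48 ± 0.13, adjusted p = 0.00576) and heart ECs (-0.45 ± 0.13, adjusted p = 0.0108) against heart fibroblasts, and both calls were lost with library totals alone (adjusted p = 0.0827 and 0.0623). Heart iECs and heart ECs differed by -0.03 ± 0.13 (adjusted p = 0.856), a sign that turned with library totals alone and without replicate 3 of the heart ECs. Plat rose in lung ECs against lung fibroblasts (0.36 ± 0.13, adjusted p = 0.0288), and that call was lost without replicate 2 or 3 of either group (adjusted p of at most 0.114).

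Plau encodes urokinase, a plasminogen activator that macrophages also make, and lies on chromosome 14 from 20836660 to 20843385, plus strand. Plau reached 30.3, 33.6 and 52.8 CPM in lung iECs and 3.68, 3.67 and 3.32 CPM in heart iECs. It reached 158, 156 and 130.5 CPM in lung ECs and 30.2, 30.0 and 39.4 CPM in heart ECs. In fibroblasts it was 15.6 to 17.0 CPM in lung and 14.8 to 19.6 CPM in heart. Lung ECs were above all other libraries, heart iECs below all others, and the fibroblasts of the 2 organs overlapped. Against fibroblasts, Plau rose 2.40-fold in lung iECs (log2 change 1.26 ± 0.17, edgeR adjusted p = 1.19e-05) and was 4.72-fold lower in heart iECs (-2.24 ± 0.20, adjusted p = 7.81e-08). In ECs it rose in both organs, by 3.19 ± 0.18 in lung (adjusted p = 1.57e-10) and by 0.98 ± 0.17 in heart (adjusted p = 0.000218). It was 3.81-fold lower in lung iECs than in lung ECs and 9.30-fold lower in heart iECs than in heart ECs (adjusted p = 8.16e-08 and 9.88e-10).

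Plaur encodes the urokinase receptor, which many leukocytes carry, and lies on chromosome 7 from 24462484 to 24475968, plus strand. Plaur reached 28.8, 28.2 and 48.2 CPM in lung iECs and 14.3, 13.3 and 13.1 CPM in heart iECs. It reached 91.6, 115 and 74.3 CPM in lung ECs and 19.8, 15.1 and 20.7 CPM in heart ECs. In fibroblasts it was 14.7 to 17.0 CPM in lung and 3.001 to 4.36 CPM in heart. Lung ECs stood above and heart fibroblasts below all other libraries, and the ranges of lung fibroblasts and heart ECs overlapped. Plaur rose in the iECs and ECs of both organs against fibroblasts of the same organ. On the log2 scale it rose by 1.12 ± 0.20 in lung iECs (edgeR adjusted p = 0.000209) and 1.87 ± 0.24 in heart iECs (adjusted p = 5.96e-06). In lung ECs it rose by 2.53 ± 0.20 (adjusted p = 2.17e-08) and in heart ECs by 2.32 ± 0.24 (adjusted p = 8.01e-07). In heart iECs the receptor thus rose while its ligand Plau fell. Plaur was 2.67-fold lower in lung iECs than in lung ECs (-1.42 ± 0.19, adjusted p = 1.73e-05). Between heart iECs and heart ECs the change of -0.45 ± 0.20 did not pass (adjusted p = 0.0813), though it did with DESeq2 (adjusted p = 0.0444), with the 2 groups fitted alone (adjusted p = 0.00428), without replicate 2 of the heart ECs (adjusted p = 0.0419) and without replicate 3 of the lung iECs (adjusted p = 0.0189).

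The macrophage markers also differed between the groups. The 10 markers, all with over 3 counts in each group, averaged 3253 CPM in sum in lung iECs, 331 CPM in heart iECs, 9025 CPM in lung ECs, 281 CPM in heart ECs, 1185 CPM in lung fibroblasts and 227 CPM in heart fibroblasts. The order of the lung groups was the same for the marker sum, Plau and Plaur. Within groups, Plaur followed the order of the marker sum in lung iECs and lung ECs, while Plau did not. Replicate 3 of the lung iECs had the highest marker sum of its group, 3846 CPM, and the most Plau and Plaur. Replicate 2 had the lowest sum, 2518 CPM, and the least Plaur, but more Plau than replicate 1, whose sum was 3393 CPM. In lung ECs replicate 2 had the highest sum, 9864 CPM, and the most Plaur, and replicate 1 had the most Plau. Replicate 1 of the lung fibroblasts had the highest sum of its group, 1367 CPM, the most Plaur and the least Plau. The part of these markers in the lung values of Plau and Plaur was not tested. In the heart the marker sum was low in all 3 cell types, while Plau was 3.56 ± 0.204 CPM in heart iECs and 33.2 ± 5.36 CPM in heart ECs, against 16.8 ± 2.50 CPM in heart fibroblasts (SD, n = 3 each).

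**Figure D2:**
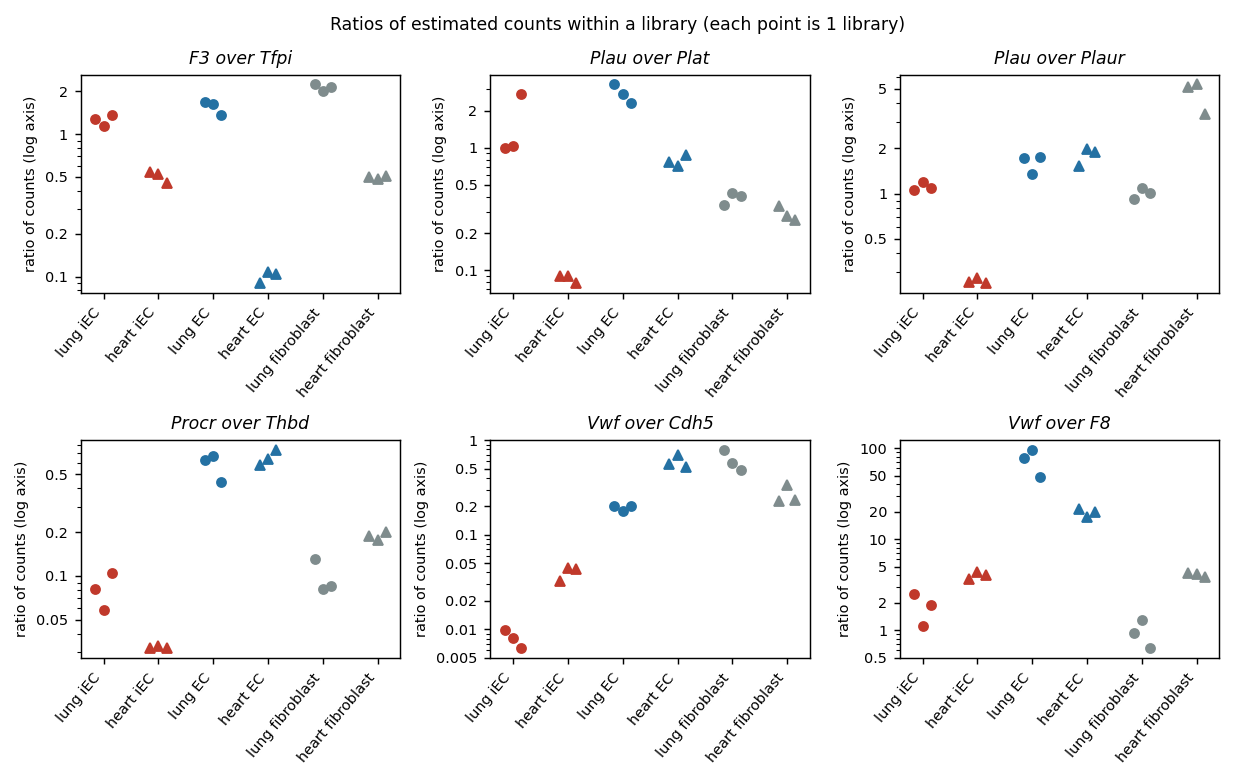
Ratios of estimated counts of 2 genes within each library on a log axis, by group, for F3 over Tfpi, Plau over Plat, Plau over Plaur, Procr over Thbd, Vwf over Cdh5 and Vwf over F8. Each point is 1 library; the F3 to Tfpi ratio is lowest in heart ECs and the Plau to Plaur ratio is lowest in heart iECs, at 0.254 to 0.275.

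The activators and the receptor also differed in proportion. Plau per Plat was 0.995, 1.03 and 2.74 in lung iECs and 0.0901, 0.0894 and 0.0788 in heart iECs. The same ratio was 2.31 to 3.29 in lung ECs, 0.710 to 0.870 in heart ECs, 0.341 to 0.427 in lung fibroblasts and 0.257 to 0.337 in heart fibroblasts. Heart iECs were lowest with no overlap, and replicate 3 of the lung iECs reached into the lung EC range. Plau per Plaur was 1.05 to 1.19 in lung iECs, 0.254 to 0.275 in heart iECs, 1.36 to 1.76 in lung ECs, 1.53 to 1.99 in heart ECs, 0.916 to 1.09 in lung fibroblasts and 3.39 to 5.33 in heart fibroblasts. The proportion of urokinase to its receptor was lowest in heart iECs and highest in heart fibroblasts, with no overlap with any other group.

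Per comparison, the members called are read against the share of all genes called. In lung iECs against lung fibroblasts, 3 of the 8 tested members were higher and 2 lower, where 50.6% of all genes were called, 25.9% higher and 24.7% lower. In heart iECs against heart fibroblasts, 1 was higher (Plaur) and 5 were lower, where 50.7% of all genes were called, 26% higher and 24.6% lower. In lung ECs against lung fibroblasts, 5 were higher and 2 lower, where 58.1% were called, 29.3% higher and 28.7% lower. In heart ECs against heart fibroblasts, 6 were higher and 2 lower, where 47.4% were called, 24.2% higher and 23.3% lower. With such shares of all genes called, a called member is by itself close to the background. The median log2 change of the 8 members was 0.23 in lung iECs and -0.48 in heart iECs, against 1.28 in lung ECs and 1.26 in heart ECs, while that of all genes lay between 0 and 0.02. The iEC and EC comparisons share their fibroblast libraries.

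Against native ECs, 1 member was higher in lung iECs (Tfpi) and 5 were lower, and 1 was higher in heart iECs (F3) and 5 were lower. Of all genes, 45.2% were called in the lung comparison, 22.2% higher and 23% lower, and 48.9% in the heart comparison, 24.5% higher and 24.4% lower. The median change of the members was -1.19 in lung iECs and -1.16 in heart iECs, against -0.01 and 0.01 for all genes. Vwf, Procr and Plau were lower in iECs than in ECs of both organs. Plat and Plaur were lower in the lung, and F8 and Tfpi in the heart.

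**Figure D3:**
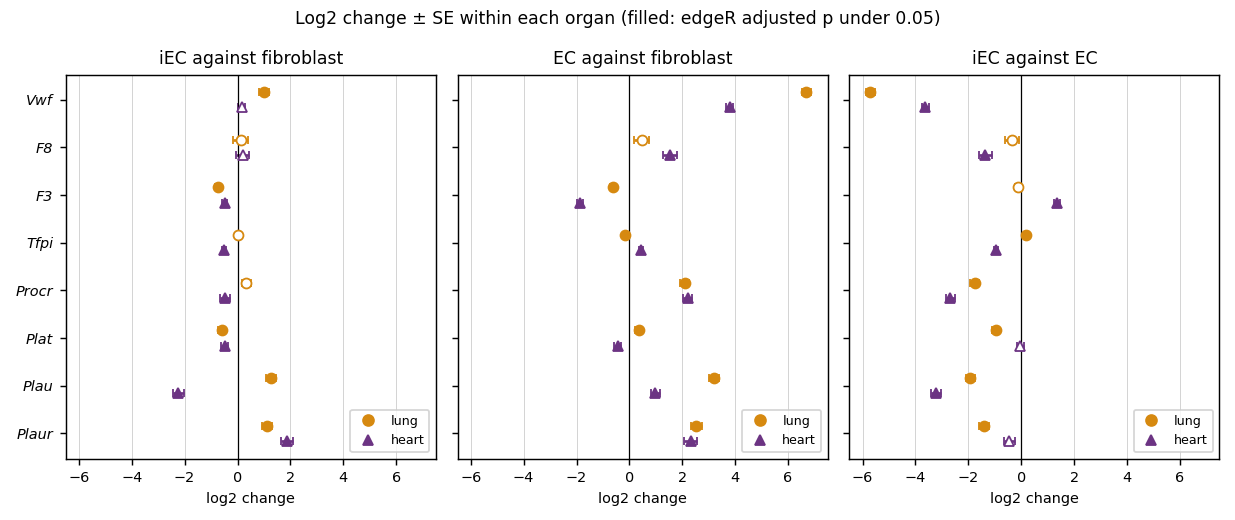
Log2 change ± SE of the 8 tested members for iECs against fibroblasts, ECs against fibroblasts and iECs against ECs, lung (circles) and heart (triangles), on a linear axis. Filled symbols passed an edgeR adjusted p of 0.05; Vwf changes by 6.69 in lung ECs against lung fibroblasts and by -5.70 in lung iECs against lung ECs.

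Lung and heart were then compared within each cell type. In iECs all 8 tested members differed, 5 higher and 3 lower in lung, where 37.7% of all genes were called, 18.9% in each direction. Plau led with 10.9-fold more in lung iECs (log2 change 3.45 ± 0.20, edgeR adjusted p = 6.67e-10), followed by F3 (1.87 ± 0.11), Procr (1.40 ± 0.18), Plaur (1.37 ± 0.20) and Tfpi (0.56 ± 0.069). Vwf (-2.57 ± 0.15), F8 (-1.30 ± 0.27) and Plat (-0.59 ± 0.14) were lower in lung iECs. Without replicate 3 of the lung iECs the Plat change was -0.39 and still called, and with the 2 groups fitted alone it was not called (adjusted p = 0.0579).

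In ECs all 8 also differed, 5 higher and 3 lower in lung, where 47.9% of all genes were called, 24.2% higher and 23.7% lower. F3 was 10.3-fold higher in lung ECs than in heart ECs (log2 change 3.36 ± 0.12, edgeR adjusted p = 9.4e-14), Plaur 5.05-fold (2.34 ± 0.20) and Plau 4.46-fold (2.16 ± 0.17). F8 was 4.95-fold lower in lung ECs (-2.31 ± 0.26), Tfpi 1.498-fold (-0.58 ± 0.068) and Vwf 1.42-fold (-0.50 ± 0.12). Procr (0.49 ± 0.16, adjusted p = 0.0186) was no longer called without replicate 2 of the lung ECs, at 0.26 with an adjusted p of 0.151, nor without replicate 2 of the heart ECs (adjusted p = 0.072) or with the 2 groups fitted alone (adjusted p = 0.0687). Plat (0.34 ± 0.13, adjusted p = 0.046) was lost without replicate 2 or 3 of the lung ECs, any heart EC library, any heart iEC or heart fibroblast library, or replicate 3 of the lung fibroblasts (adjusted p of at most 0.142).

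In fibroblasts 3 were higher and 3 lower in lung, where 48.5% of all genes were called, 24.6% higher and 23.9% lower. Plaur (log2 change 2.12 ± 0.24), F3 (2.13 ± 0.11) and Procr (0.59 ± 0.18) were higher in lung fibroblasts, and Vwf (-3.40 ± 0.17), F8 (-1.23 ± 0.28) and Plat (-0.47 ± 0.13) lower. Procr was not called without replicate 1 of the lung fibroblasts (0.47, edgeR adjusted p = 0.0636), nor Plat with library totals alone (adjusted p = 0.0625). Tfpi (0.03 ± 0.068) and Plau (-0.05 ± 0.18) did not pass, and the sign for Plau turned with library totals alone. F3, Plaur and Procr were thus higher, and Vwf and F8 lower, in lung than in heart in each of the 3 cell types, while Plau was higher in lung iECs and lung ECs and Tfpi changed direction between iECs and ECs.

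**Figure D4:**
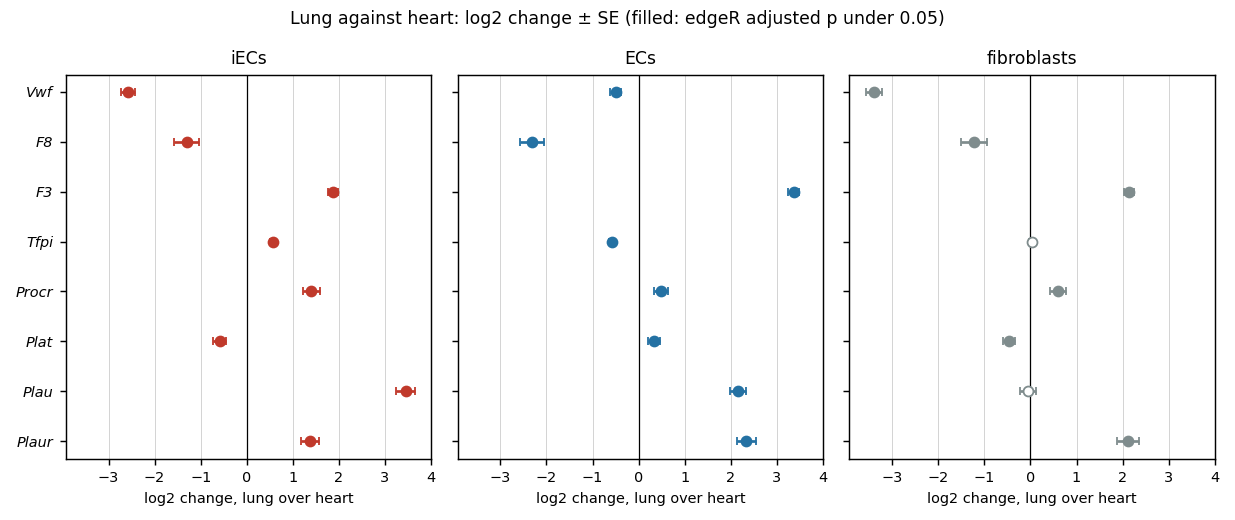
Log2 change ± SE of the 8 tested members in lung against heart, for iECs, ECs and fibroblasts. Filled points passed an edgeR adjusted p of 0.05; F3 lies right of 0 and Vwf and F8 left of 0 in the 3 panels, and Plau and Tfpi are open points in fibroblasts.

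Whether the change in a cell type depended on the organ was tested as lung change minus heart change. For iECs against fibroblasts, 4 of the 8 members differed between organs, all 4 in the higher direction, where 25.2% of all genes did, 12.6% in each direction: Plau (3.50 ± 0.27, edgeR adjusted p = 8.97e-08), Vwf (0.83 ± 0.23, adjusted p = 0.0128), Procr (0.81 ± 0.25, adjusted p = 0.0235) and Tfpi (0.53 ± 0.097, adjusted p = 0.000464). The Procr difference was lost without replicate 1 of the heart iECs, replicate 3 of the lung iECs, replicate 3 of the heart fibroblasts or replicate 2 of the lung fibroblasts, with an adjusted p of at most 0.0644. Plaur had a difference of -0.75 ± 0.31 (adjusted p = 0.0918), which passed without replicate 3 of the lung iECs (-1.05, adjusted p = 0.00401). For ECs against fibroblasts, 4 were higher and 2 lower, where 34.5% of all genes were called, 16.2% higher and 18.3% lower. Vwf (2.90 ± 0.21), Plau (2.21 ± 0.24), F3 (1.23 ± 0.15) and Plat (0.81 ± 0.19) changed more upward in lung, and Tfpi (-0.61 ± 0.097) and F8 (-1.08 ± 0.38) more upward in heart. Vwf itself was lower in lung than in heart, by -0.50 in ECs, -2.57 in iECs and -3.40 in fibroblasts on the log2 scale. Its positive differences against fibroblasts thus mean that this gap between organs was wider in fibroblasts than in iECs or ECs. They do not mean more Vwf in lung iECs or lung ECs than in those of the heart. The F8 difference (adjusted p = 0.0368) was lost in 6 fits that leave out 1 library: replicate 1 or 2 of the lung ECs, 2 of the heart ECs, 3 of the lung fibroblasts, or 1 or 3 of the heart fibroblasts (adjusted p of at most 0.117).

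For iECs against ECs, 3 members were higher and 4 lower, where 26% of all genes were called, 13.8% higher and 12.2% lower. The difference was positive for Plau (1.29 ± 0.26), Tfpi (1.15 ± 0.097) and Procr (0.92 ± 0.24) and negative for Vwf (-2.07 ± 0.19), F3 (-1.49 ± 0.15), Plaur (-0.97 ± 0.28) and Plat (-0.93 ± 0.19). For Vwf this means that lung iECs were further below lung ECs than heart iECs were below heart ECs. F8 had a difference of 1.01 ± 0.38 with an edgeR adjusted p of 0.057, and it passed with DESeq2 (adjusted p = 0.0383). It also passed without replicate 1 or 3 of the lung iECs (edgeR adjusted p = 0.0446 and 0.0315). Without replicate 3 of the lung ECs it passed too (edgeR adjusted p = 0.00908).

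Levels can be compared between genes only per length, here as mean CPM per kilobase of annotated exon. F3 ranked highest of the 9 in lung iECs (65.6), heart iECs (17.9), lung ECs (71.5), lung fibroblasts (110.2) and heart fibroblasts (25.2). In heart ECs F3 was 6.96 per kilobase and Tfpi (31.9), Procr (27.7) and Vwf (17.2) led. In lung ECs Plau (62.6), Procr (38.7) and Plaur (35.8) followed F3, and Vwf was at 12.1. In lung iECs Vwf was at 0.232 and in heart iECs at 1.38 per kilobase, and Adamts13 ranked last in every group. The gene at the top of each group was the same per kilobase of the longest coding transcript. The order below it was not always kept: in lung ECs Plau was then at 63.2, Plaur at 62.2 and Procr at 49.3.

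Other genes of these pathways were followed as 6 lists with 67 genes, of which 49 were tested. Of these 49, 14 were higher and 19 lower in lung iECs against lung fibroblasts, and 11 higher and 19 lower in heart iECs against heart fibroblasts, where 50.6% and 50.7% of all genes were called. Against fibroblasts, lung ECs had 27 higher and 17 lower, where 58.1% of all genes were called, and heart ECs 25 higher and 9 lower, where 47.4% were called. Against ECs, lung iECs had 9 higher and 25 lower with a median log2 change of -0.40, and heart iECs 7 higher and 28 lower with a median of -0.52, where the median of all genes was -0.01 and 0.01. In the lung comparison of iECs with ECs 45.2% of all genes were called, 22.2% higher and 23% lower, and in the heart comparison 48.9%, 24.5% higher and 24.4% lower.

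The list of Weibel-Palade body genes, the cargo and release machinery of the granule that stores von Willebrand factor, had 12 genes tested. In lung iECs against lung ECs 1 was higher and 6 lower, with a median log2 change of -0.48, where 45.2% of all genes were called. In heart iECs against heart ECs 1 was higher and 9 lower, with a median of -0.86, where 48.9% of all genes were called. Selp, which encodes P-selectin, the leukocyte adhesion receptor of these granules, averaged 5.46 CPM in lung iECs against 754 CPM in lung ECs (-7.13 ± 0.69, edgeR adjusted p = 2.56e-06), and 8.22 CPM in heart iECs against 551 CPM in heart ECs (-6.07 ± 0.65, adjusted p = 5.62e-06). Angpt2, a granule ligand of the Tie2 receptor, fell by 6.23 ± 0.16 in lung and 4.46 ± 0.15 in heart on the log2 scale. Sytl4, whose product regulates granule release, was the gene that was higher in iECs, by 0.99 ± 0.16 in lung and 1.54 ± 0.16 in heart (adjusted p = 5.41e-05 and 2.03e-07).

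Of the 7 genes of platelet adhesion and platelet inhibition, 6 were lower and none higher in lung iECs against lung ECs (median log2 change -1.10), where 23% of all genes were lower. In heart iECs against heart ECs 5 were lower and 1 higher (median -2.36), where 24.4% of all genes were lower. Mmrn1, which encodes a multimeric protein of platelets and endothelium that binds factor V, averaged 1.16 CPM in lung iECs against 525 CPM in lung ECs, and 2.47 CPM in heart iECs against 192 CPM in heart ECs. Nos3, endothelial nitric oxide synthase, averaged 0.398 CPM in lung iECs against 8.53 CPM in lung ECs (-4.40 ± 0.36), and 0.555 CPM in heart iECs against 17.5 CPM in heart ECs (-4.96 ± 0.34). Thbs1, which encodes thrombospondin 1, was higher in heart iECs than in heart ECs, by 0.52 ± 0.11 (edgeR adjusted p = 0.000764). Against fibroblasts, Thbs1 rose in lung iECs (1.68 ± 0.11) and heart iECs (2.18 ± 0.11). Native ECs were above fibroblasts too, at 6432 CPM against 2148 CPM in lung and 2611 CPM against 824 CPM in heart.

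Of the 9 anticoagulant genes tested, 3 were higher and 4 lower in lung iECs against lung ECs, where 45.2% of all genes were called, and 4 higher and 4 lower in heart iECs against heart ECs, where 48.9% were called. Besides Thbd, Hs3st1, which encodes an enzyme that makes the antithrombin-binding form of heparan sulfate, was higher in iECs, by 0.56 ± 0.13 in lung and 0.62 ± 0.13 in heart (edgeR adjusted p = 0.00159 and 0.000515). Tfpi2, a related protease inhibitor, was lower, with log2 changes of -2.89 ± 0.27 in lung and -1.56 ± 0.26 in heart. Gas6, a vitamin K-dependent ligand of the TAM receptors, was lower in both iEC groups than in fibroblasts, at 101 CPM in lung iECs against 664 CPM in lung fibroblasts and 355 CPM in heart iECs against 4860 CPM in heart fibroblasts. Native ECs were also below fibroblasts, at 174 CPM in lung ECs and 1002 CPM in heart ECs. Of the 4 thrombin and protease-activated receptors, 3 were lower in lung iECs than in lung ECs and none higher, and 2 were lower and 1 higher (F2r, the main thrombin receptor of endothelium) in heart iECs than in heart ECs; 23% and 24.4% of all genes were lower in these comparisons. F2rl1 averaged 1.90 CPM in lung iECs against 15.4 CPM in lung ECs (-3.01 ± 0.31).

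The procoagulant list had 8 genes tested. F7, the partner of tissue factor, averaged 19.1 CPM in lung iECs, 0.127 CPM in heart iECs, 47.9 CPM in lung ECs, 0.192 CPM in heart ECs, 7.43 CPM in lung fibroblasts and 0.0751 CPM in heart fibroblasts. F10 averaged 10.6, 26.4 and 4.35 CPM in lung iECs, lung ECs and lung fibroblasts and was at 0.561 CPM or less in the heart groups. F13a1, the transglutaminase subunit that cross-links fibrin and a gene of resident macrophages, averaged 6.72 CPM in lung iECs, 1.06 CPM in heart iECs, 277 CPM in lung ECs, 4.01 CPM in heart ECs, 17.3 CPM in lung fibroblasts and 4.24 CPM in heart fibroblasts. F13a1 fell in lung iECs against lung fibroblasts (log2 change -1.36 ± 0.50, edgeR adjusted p = 0.0366), where the macrophage marker sum was higher. Against the heart group of the same cell type, F7, F10, F13a1 and the macrophage marker sum were higher in each lung group, and the part of those markers in these levels was not tested. F5, which encodes factor V, was at 2.36 CPM in lung ECs and 2.30 CPM in heart ECs, and between 0.241 and 1.01 CPM in the other groups. In lung iECs against lung ECs 3 procoagulant genes were higher and 3 lower, where 45.2% of all genes were called. In the heart comparison none of the 8 was higher and 4 were lower, where 48.9% of all genes were called, 24.5% higher and 24.4% lower.

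Of the 9 tested genes for fibrinolysis inhibitors, receptors and clearance, 2 were higher and 5 lower in lung iECs against lung fibroblasts, where 50.6% of all genes were called, and 2 higher and 4 lower in heart iECs against heart fibroblasts, where 50.7% were called. Anxa2, which encodes a surface binder of plasminogen and its tissue activator, rose by 0.48 ± 0.11 in lung iECs and 0.93 ± 0.11 in heart iECs on the log2 scale (edgeR adjusted p = 0.00116 and 1.06e-06). Its average was also higher in native ECs, at 839 CPM against 499.8 CPM in fibroblasts of the lung and 713 CPM against 418 CPM in the heart. Serpinb2, plasminogen activator inhibitor 2, averaged 5.03 CPM in lung iECs, 0.115 CPM in heart iECs, 211 CPM in lung ECs and 39.9 CPM in heart ECs, against 11.5 CPM in lung fibroblasts and 0.254 CPM in heart fibroblasts.

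**Figure D5:**
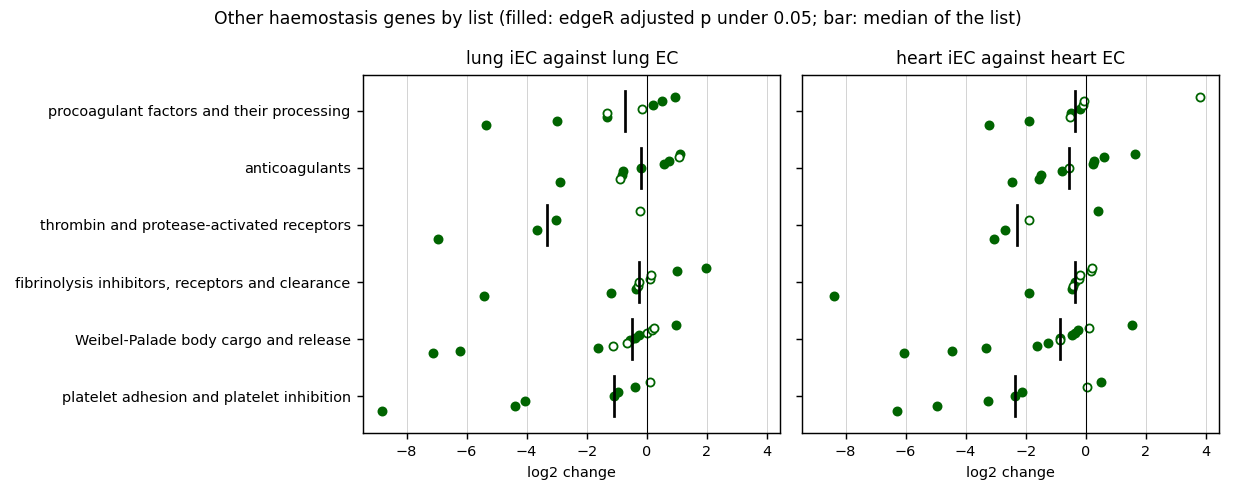
Log2 change of each tested gene (points) of the 6 pathway lists in lung iECs against lung ECs (left) and heart iECs against heart ECs (right); filled points passed an edgeR adjusted p of 0.05 and bars mark the median of a list. Most filled points lie left of 0, with 25 genes lower and 9 higher in lung and 28 lower and 7 higher in heart.

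The genes whose log2 CPM followed each member most closely over the 18 libraries were ranked by Pearson's r among 10968 genes, as a description: libraries of a group share their cell type and organ. For Vwf these were Egfl7 (0.987), Nrarp (0.976) and Sox7 (0.975), for Procr Ninj1 (0.979), Olr1 (0.963) and Fam174b (0.961), and for Tfpi Serpina3g (0.871), Rcan2 (0.861) and Acvr1b (0.850). For F3 they were Gpc1 (0.965), Prdm6 (0.928) and Tbx4 (0.924), and for F8 Klhl5 (0.952), Ripor1 (0.933) and Cd151 (0.923). For Plat they were Ralgps2 (0.892), Osbpl9 (0.887) and Cat (0.885), for Plau Naip2 (0.979), Evi2a (0.963) and Hmox1 (0.960), and for Plaur Utp4 (0.986), Kpnb1 (0.979) and Mybbp1a (0.977). Over the 6 group means in place of libraries, all 3 genes were kept for Vwf, 2 for F8, 1 each for F3, Plau and Plaur, and 0 for Procr, Tfpi and Plat. Among the members themselves, Procr and Plau had r = 0.878 and Procr and Plaur r = 0.726, while F3 and F8 had r = -0.944, and F3 ranked last of the 10968 genes for likeness to F8.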

How the data were processed

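RNA was extracted with an RNeasy column kit and mRNA libraries were prepared by Novogene, per the labels' protocols, and the strand of counting, library read length and the summing of transcripts to genes are not given in the sources used here. The authors deposited 1 table of estimated counts per gene for 18 libraries, all whole numbers, made with Salmon, DESeq2 and mm10 as named in the submitters' processing notes, which give no role or version. Gene IDs were paired with symbols through GENCODE M21 (GRCm38), which named 35422 of 35727. The members and gene lists were chosen with earlier results of these data known.

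Counts were fitted with edgeR 4.0.16 in R 4.3.3: genes were kept by filterByExpr (14864 genes with 99.97% of counts), sizes were scaled by TMM, and a robust quasi-likelihood fit used all 18 libraries (1 mean per group, 12 residual degrees of freedom), with Benjamini-Hochberg adjustment over all tested genes and a threshold of 0.05. The SE of a log2 change is its size over the square root of F. Organ differences are contrasts of the same fit. Libraries of a group correlated at 0.976 to 0.995 and none was a duplicate. The floor given for Adamts13 covers counting error only, while each SE and SD includes the spread between libraries of a group. From the pathway lists, up to 2 called genes per list, direction and comparison and a mean of 5 CPM or more in either group were named by the size of their change, and other list genes were given as values. Likeness was computed on log2 CPM with a prior count of 2, among genes with a mean of at least 5 CPM. The steps were tested on simulated data with 200 genes changed in heart iECs alone. That is far fewer changes than were called in the data, so the simulation could not test the scaling. Alternatives were DESeq2 1.42.0, RLE size factors, no filter, a filter at 5 CPM, each comparison fitted alone, the replicate number as a block, leaving out each library and, chosen after seeing the data, library totals alone. Motifs were counted in RefSeq promoters of GRCm38.p6. No evidence was found that replicate numbers pair libraries across groups. In 0 of 15 pairs of groups did all 3 same-numbered pairs deviate together with r over 0.1. That check cannot exclude pairing, and the labels do not say what a replicate number shares. The values of 1 gene of the fibrinolysis list are not reported here.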

Additional observations from a re-analysis of the deposited data

Results flagged for a closer look

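The change between cell types differed between lung and heart, by a test of the difference itself, for 17 pairs of member and contrast. Values are the lung change minus the heart change on the log2 scale with its SE and edgeR adjusted p. In iECs against fibroblasts, the difference was 3.50 for Plau (SE 0.266, adjusted p = 8.97e-08), 0.83 for Vwf (SE 0.231, adjusted p = 0.0128), 0.81 for Procr (SE 0.249, adjusted p = 0.0235) and 0.53 for Tfpi (SE 0.0968, adjusted p = 0.000464).

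In ECs against fibroblasts it was 2.90 for Vwf (SE 0.209, adjusted p = 7.34e-09), 2.21 for Plau (SE 0.244, adjusted p = 2.22e-06), 1.23 for F3 (SE 0.151, adjusted p = 3.96e-06), 0.81 for Plat (SE 0.19, adjusted p = 0.00274), -0.61 for Tfpi (SE 0.0967, adjusted p = 6.51e-05) and -1.08 for F8 (SE 0.384, adjusted p = 0.0368). In iECs against ECs it was 1.29 for Plau (SE 0.256, adjusted p = 0.00127), 1.15 for Tfpi (SE 0.0969, adjusted p = 8.62e-08), 0.92 for Procr (SE 0.237, adjusted p = 0.0084), -0.93 for Plat (SE 0.191, adjusted p = 0.00145), -0.97 for Plaur (SE 0.28, adjusted p = 0.0178), -1.49 for F3 (SE 0.151, adjusted p = 7.81e-07) and -2.07 for Vwf (SE 0.192, adjusted p = 2.92e-07). Vwf was lower in lung than in heart in each cell type, most so in fibroblasts, and its positive differences against fibroblasts restate that order. The 3 contrasts share libraries. With 3 libraries a group, no test for a single far library was made.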

How the results depend on the processing

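Of 96 member results, 77 were called, and 26 changed call or sign under at least 1 alternative. With DESeq2 93 of the 96 kept both, with RLE size factors 95, with a 5 CPM filter 96, with no filter 94 and with the compared groups alone 91. Library totals alone, chosen after seeing the data, kept 86; they shift the median of all genes by up to 0.206 on the log2 scale (heart iECs against heart fibroblasts), and they reversed Plat in heart iECs against heart ECs (0.0353) and Plau in lung against heart fibroblasts (0.0885). Relative to the median of all genes, which stood at 0.0799 and 0.152 there, both were negative. With the replicate number as a block 93 kept both, and Procr in heart iECs against heart fibroblasts (-0.47, edgeR adjusted p = 0.0563), Tfpi in lung ECs against lung fibroblasts (-0.17, adjusted p = 0.0519) and Plat in lung against heart ECs (0.34, adjusted p = 0.0643) lost their call; the numbers are shared without evidence of pairing, since r between same-numbered libraries ran from -0.584 to 0.223. Leaving out each of 18 libraries kept 1660 of 1728 values; values that reversed, none of them called, ranged as follows: Tfpi in lung iECs against lung fibroblasts -0.0129 to 0.0686, F8 there -0.286 to 0.317, Plat in heart iECs against heart ECs -0.0805 to 0.00523, Plau in lung against heart fibroblasts -0.134 to 0.0745, the organ differences of iECs against fibroblasts for F8 -0.475 to 0.128 and for Plat -0.265 to 0.0823, and that of ECs against fibroblasts for Procr -0.328 to 0.0405. Counts of members called stayed within 1.5 times the reported under each alternative run. The cause of these changes was not tested. Depth limits Adamts13, which had 1 to 16 counts per group.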
